A study of Homo sapiens with 12 samples.

Results

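The 10 genes described here encode the replicative helicase subunits MCM2, MCM3, MCM4, MCM5, MCM6 and MCM7, the helicase-associated factor MCM10, the licensing factors CDC6 and CDT1, and geminin (GMNN), the inhibitor of CDT1. They were taken by symbol, as 10 of the 59385 gene names in the count table, and all 10 were detected, with 170 to 12023 counts in each library. RNA was sequenced from HEK293T, a human embryonic kidney line, in a pair of stable derivatives that each came from a single clone: shCtrl carries a Dox-inducible non-silencing control shRNA, and shPRRC2B a Dox-inducible shRNA against PRRC2B, an RNA-binding protein that the study examined as a regulator of translation. Both lines received Dox and were collected 36 h later. Each was sampled as total RNA, extracted from whole cells, and as polysome RNA, which came from the pooled heavy fractions of a sucrose gradient loaded with cytosolic lysate of cycloheximide-treated cells. There were 3 biological replicates of each of the 4 groups, 12 libraries in all. With 1 clone per shRNA, clone and shRNA cannot be told apart.

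Origins of replication are licensed in G1, when the origin recognition complex, CDC6 and CDT1 load MCM2 to MCM7 onto DNA as an inactive double ring. In S phase the ring is activated with CDC45 and the GINS complex, MCM10 takes part in this step, and renewed loading is prevented by destruction of CDT1 and by geminin, which binds it. Most of these genes are transcribed under E2F control as cells enter S phase, and a proliferating line such as HEK293T expresses all of them.

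The bases around the start codon are shown first, because PRRC2B was studied for binding near initiation codons. They were read from the canonical GENCODE 44 transcripts (GRCh38), with the start codon in capitals, and no context is printed for MCM4.
MCM2: actgctATGg
MCM3: gcgggcATGg
MCM5: gcagtcATGt
MCM6: gcaaatATGg
MCM7: gcagcgATGg
MCM10: gacagcATGg
CDC6: gtcgtcATGc
CDT1: gccgccATGg
GMNN: tacataATGa
A purine stood at -3 in 10 of 10 members and in 86% of 19357 coding transcripts, and G stood at 4, the base after the codon, in 6 of 10 and in 51.4%. CDT1 (chr16:88803789-88809258, + strand) had the full gccgccATGg context, whereas GMNN (chr6:24774931-24786099, + strand), MCM5 (chr22:35400134-35425431, + strand) and CDC6 (chr17:40287879-40304657, + strand) lacked the G. None of the 10 annotated 5′ UTRs, 43 nt (CDT1) to 333 nt (GMNN) long, held an upstream ATG, which 42.8% of coding transcripts with a 5′ UTR hold. The canonical transcripts ran from 1263 nt for GMNN to 4564 nt for CDC6, with the helicase subunits between 2467 nt (MCM7, chr7:100092233-100101940, - strand) and 4062 nt (MCM4). Exons of MCM2 (chr3:127598410-127622436, + strand) share 1113 nt with a long noncoding RNA gene on the opposite strand, and the counting options in the study's methods include no strand setting, so reads of that stretch cannot be assigned to a strand here.

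The libraries held 9855734 to 20837542 counts, and 18166 genes passed a filter on low counts. Levels are given as CPM, a count relative to its library's total, scaled by TMM over the 12 libraries. PRRC2B itself measured 281 ± 28.7 CPM (SD, n = 3) in shCtrl total RNA and 100.3 ± 2.32 CPM in shPRRC2B total RNA, a log2 change of -1.49 ± 0.17 (SE, adjusted p = 4.25e-06). All 6 HEK293 line markers passed the filter, and they summed to 685 to 763 CPM in shCtrl total RNA and 483 to 512 CPM in shPRRC2B total RNA. By contrast, PTPRC and CD3E had at most 1 count in any library, and the 4 of 8 markers of other cell types that passed summed to 15.6 to 40.7 CPM. In bulk RNA, fewer cells that express a gene and less RNA per cell cannot be told apart. Translation efficiency (TE) is the polysome-to-total ratio, its change is the log2 of the ratio in shPRRC2B over that in shCtrl, and a gene is called at an adjusted p (edgeR quasi-likelihood test, Benjamini-Hochberg over all genes tested) under 0.05 with a log2 change above 0.5 or below -0.5.

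In shCtrl total RNA the members were compared per kilobase of transcript (mean CPM per kb ± SD, n = 3). MCM7 was highest at 145 ± 11.8, followed by MCM4 at 81.3 ± 1.38 and MCM3 at 73.8 ± 1.22, whose ranges of mean ± SD did not meet. CDT1 (66.6 ± 12), GMNN (59.98 ± 1.89), MCM2 (55.2 ± 4.94) and MCM5 (49.9 ± 4.47) came next, and the mean ± SD range of each met that of the next. The range of CDT1 also met that of MCM3. MCM6 followed at 37.7 ± 0.653. CDC6 (15.2 ± 0.532) and MCM10 (13.9 ± 0.142) were the lowest. The 6 helicase subunits, which occupy the ring in equal number, thus spanned 3.85-fold per kb in shCtrl total RNA and 3.65-fold in shPRRC2B total RNA. In polysome RNA they spanned 7.24-fold and 7.54-fold, with MCM7 highest and MCM2 lowest in both lines. MCM2 was also lowest in shPRRC2B total RNA. Reads of the 1113 nt that MCM2 shares with a noncoding RNA gene, 32.4% of its exon bases, cannot be assigned to a strand. Its level per kb is taken over the full transcript, so its place and the spans that rest on it carry that limit.

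The order changed in shCtrl polysome RNA. CDT1 (235 ± 101 CPM per kb) and GMNN (137 ± 8.31) stood above MCM7 (74.4 ± 16), with the first pair overlapping in mean ± SD. MCM5 (28.9 ± 8.96) and MCM3 (25.6 ± 3.51) overlapped, as did CDC6 (19.4 ± 1.47), MCM6 (19 ± 1.22) and MCM4 (18.5 ± 1.00). The range of MCM5 also met those of CDC6 and MCM6. MCM2 (10.3 ± 3.33) and MCM10 (5.50 ± 1.41) came last. In shPRRC2B polysome RNA CDT1 (159 ± 64.6), GMNN (97.9 ± 12.3) and MCM7 (62.6 ± 3.86) again led, and MCM10 (4.70 ± 0.271) was again lowest.

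**Figure D1:**
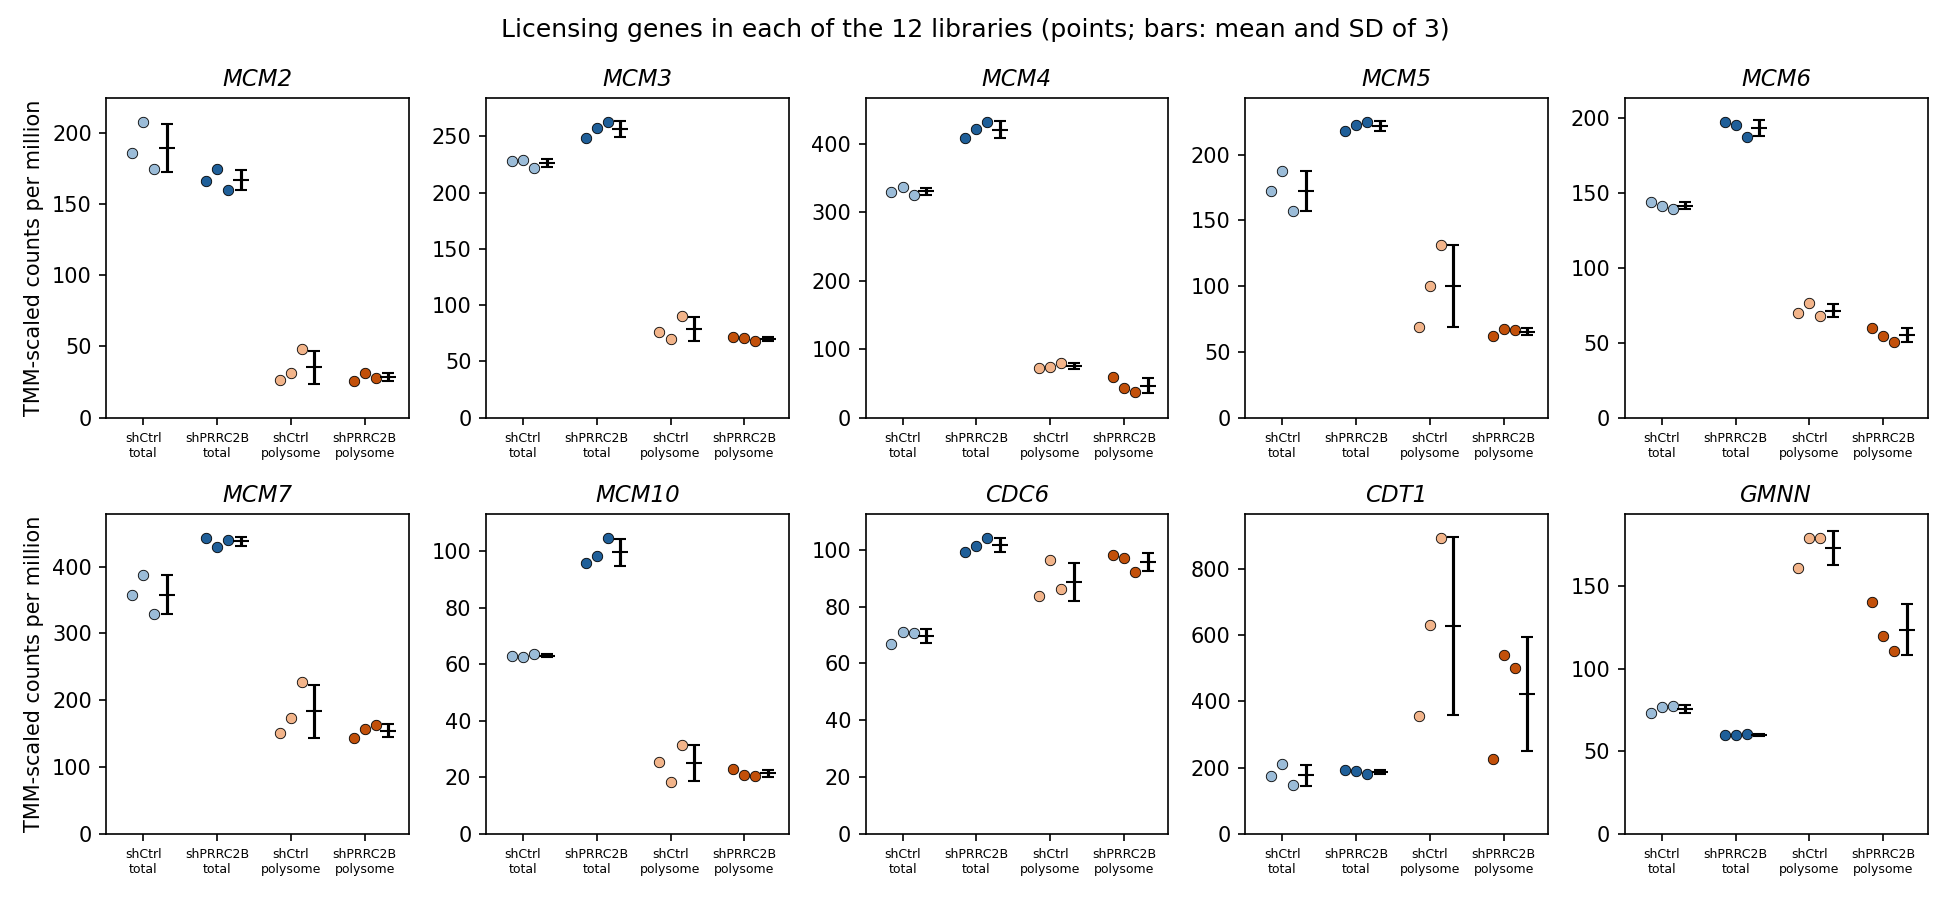
TMM-scaled CPM (y axis, from 0) of each gene in the 12 libraries, with 3 points per group in replicate order and the mean ± SD beside them. MCM2 to MCM7 and MCM10 are lower in polysome than in total RNA in both lines, CDT1 and GMNN are higher, and the 3 shCtrl polysome points of CDT1 are the most widely spread.

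The ratio of polysome to total level, both in TMM-scaled CPM, was below 1 for MCM2 to MCM7 and MCM10 and above 1 for CDC6, CDT1 and GMNN in shCtrl. It compares 2 scaled libraries and is not the share of a gene's RNA that was on polysomes. In shCtrl cells the polysome level was 18.6% of the total level for MCM2, 22.7% for MCM4, 34.7% for MCM3, 39.7% for MCM10, 50.5% for MCM6, 51.3% for MCM7 and 58% for MCM5. It was 127% for CDC6, 229% for GMNN and 353% for CDT1. For all 10 members the 3 polysome values lay entirely on one side of the 3 total values. The share of all genes with such a separation was not counted, so it is not read as a trait of the members. The log2 ratio ran from -2.43 ± 0.18 (SE, adjusted p = 7.94e-10) for MCM2 to 1.82 ± 0.30 (SE, adjusted p = 2.53e-05) for CDT1. Of the members, 7 were called lower in polysome RNA (39.8% of all genes) and 2, CDT1 and GMNN, higher (32.5%). CDC6 passed the test with a log2 ratio of 0.35 ± 0.11 (SE, adjusted p = 0.00719), under the size threshold.

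In shPRRC2B cells the same 7 genes were below total RNA (42.3% of all genes) and the same 2 above it (36.6%). The ratio fell to 11.1% for MCM4, 29.4% for MCM5, 28.4% for MCM6 and 21.5% for MCM10, and it measured 17% for MCM2. CDC6, above total RNA in shCtrl, lay at 94.3%, a log2 ratio of -0.084 ± 0.11 (SE, adjusted p = 0.473). The 0 of these ratios depends on the scaling: with library totals in place of TMM, the median ratio of all genes in shCtrl moved from -0.22 to -1.22, CDC6 lay at -0.65, GMNN at 0.19 and CDT1 at 0.81. With the trend on transcript length removed, 4 members rather than 7 were called lower in shCtrl, and GMNN, the shortest transcript, turned to -0.34 in shCtrl and -0.79 in shPRRC2B. In that fit CDC6, the longest transcript, lay at 1.28 in shCtrl and 1.23 in shPRRC2B, above total RNA in both lines. MCM2 to MCM7 and MCM10 stayed below 0 and CDT1 above 0 in both lines under each of these settings. Total RNA was taken from whole cells and polysome RNA from cytosol, and the part of nuclear RNA in these ratios was not tested.

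**Figure D2:**
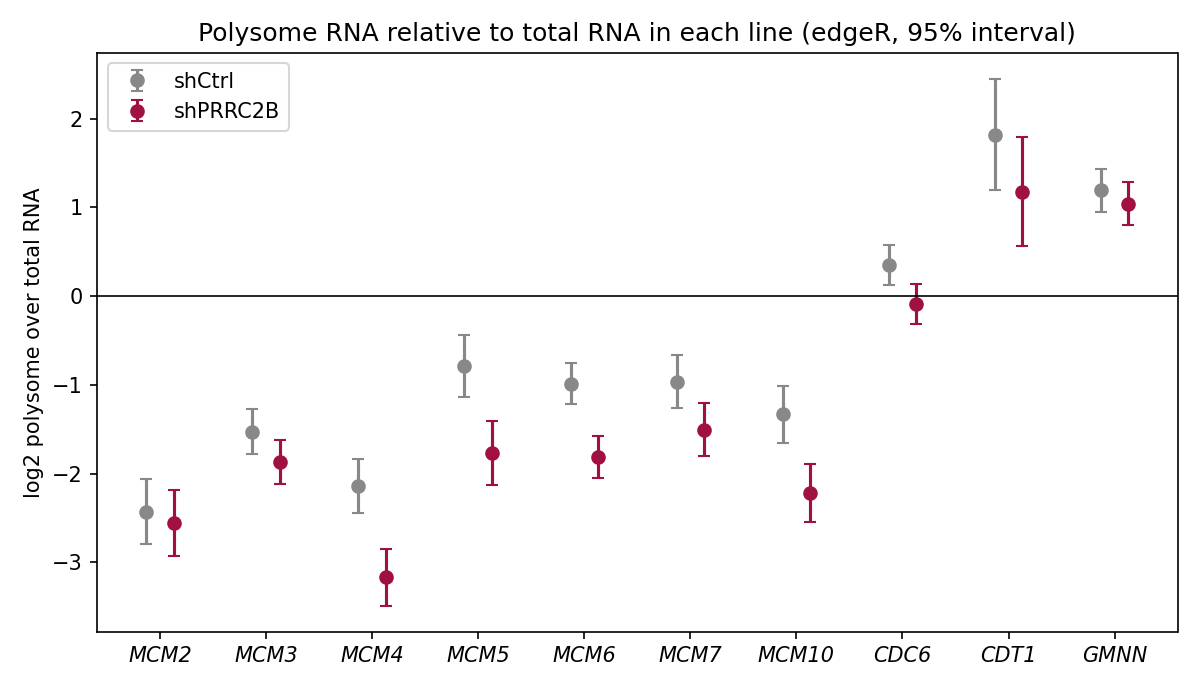
Log2 ratio of polysome to total RNA (y axis) for each gene in shCtrl (grey) and shPRRC2B (red), as the edgeR estimate with its 95% interval over 3 libraries per group. The intervals of the 2 lines do not meet for MCM4, MCM5, MCM6 and MCM10, and they overlap for the other 6 genes.

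Upon PRRC2B knockdown, 4 members had lower TE: MCM4, MCM5 and MCM6, subunits of the helicase ring, and MCM10. TE was 2.04-fold lower for MCM4, 1.97-fold for MCM5, 1.85-fold for MCM10 and 1.78-fold for MCM6. Among all genes 16.4% were TE-down and 10.7% TE-up. No member was TE-up with edgeR, DESeq2 or limma, and 0 members passed an unadjusted p under 0.05 in that direction. The estimate was below 0 for 10 of 10 members, as for 51.7% of all genes, and the median over the members was -0.59 against -0.03 over all genes. Changes in TE, total RNA and polysome RNA are computed from shared libraries and are given side by side. Their SEs rest on 1 spread per gene shared by both fractions, so those of total RNA also carry the wider polysome spread. With the total libraries fitted alone, 2 members were called higher in total RNA, as were 2865 of 17520 genes.

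MCM4 forms the catalytic core of the helicase with MCM6 and MCM7. It measured 329, 337 and 326 CPM in the shCtrl total libraries and 408, 421 and 432 CPM in the shPRRC2B total libraries. In polysome RNA it stood at 71.9, 73.5 and 79.6 CPM in shCtrl and 59.1, 43.2 and 37.8 CPM in shPRRC2B. The shPRRC2B libraries were thus all above shCtrl in total RNA and all below it in polysome RNA, with no overlap in either. The TE change was -1.03 ± 0.20 (SE, adjusted p = 0.00119), made up of 0.35 ± 0.14 (SE, adjusted p = 0.0595) in total RNA and -0.68 ± 0.14 (SE, adjusted p = 9.66e-04) in polysome RNA. With a trend on transcript length removed, MCM4 remained TE-down but its polysome change was -0.48 (adjusted p = 0.00708), under the size threshold. MCM4 had the lowest TE estimate of the 10 genes in the reported fit.

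MCM5, which with MCM2 forms the gate in the ring, showed the same arrangement with a wider spread. Its total values were 173, 188 and 157 CPM in shCtrl and 218, 222 and 225 CPM in shPRRC2B, and its polysome values 69, 99.9 and 131 CPM and 62.2, 67.1 and 66.5 CPM. The lowest shCtrl polysome library lay just above the highest one of shPRRC2B, and the shCtrl values spanned more than the difference between the group means. TE changed by -0.98 ± 0.24 (SE, adjusted p = 0.00561), total RNA by 0.36 ± 0.16 (SE, adjusted p = 0.0986) and polysome RNA by -0.61 ± 0.17 (SE, adjusted p = 0.00698). Without shCtrl polysome replicate 3, the highest library, MCM5 remained TE-down at -0.79 (adjusted p = 0.00694), but its polysome change of -0.47 (adjusted p = 0.0151) no longer reached the size threshold. With the length trend removed it was -0.50 (adjusted p = 0.022), just under that threshold.

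MCM6 (chr2:135839626-135876443, - strand) varied little between replicates. It measured 144, 141 and 139 CPM in shCtrl total RNA against 198, 196 and 187 CPM in shPRRC2B total RNA. Its polysome values of 70.1, 76.6 and 67.8 CPM in shCtrl lay above all 3 values in shPRRC2B, 60.02, 54.3 and 50.5 CPM. The TE change was -0.83 ± 0.16 (SE, adjusted p = 9.64e-04). Both of its parts passed the test but not the size threshold, at 0.45 ± 0.11 (SE, adjusted p = 0.004) in total RNA and -0.38 ± 0.11 (SE, adjusted p = 0.0109) in polysome RNA. MCM4, MCM5 and MCM6 remained TE-down under all 24 other settings, which include each library left out in turn.

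MCM7, the subunit with the highest level per kb, fell just outside the call. Total RNA measured 358, 387 and 329 CPM in shCtrl and 443, 430.1 and 440.4 CPM in shPRRC2B, without overlap. Polysome values of 150.4, 173 and 227 CPM in shCtrl overlapped those of 144, 157 and 163 CPM in shPRRC2B. The TE change was -0.54 ± 0.20 (SE, adjusted p = 0.0519) with a 95% interval of -0.96 to -0.12. It passed both thresholds in 8 of 24 other settings, among them DESeq2 with -0.56 (adjusted p = 0.0141), the length-corrected fit with -0.59 (adjusted p = 0.0369) and the fit without shCtrl polysome replicate 1 with -0.71 (adjusted p = 0.00263).

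MCM3 (chr6:52264014-52284881, - strand) and MCM2 were not called in any comparison between the lines. MCM3 had 228, 229 and 222 CPM in shCtrl total RNA, 249, 257 and 263 CPM in shPRRC2B total RNA, and polysome values of 75.7, 69.6 and 90.5 CPM and 71.7, 70.6 and 68 CPM. Its TE change of -0.34 ± 0.16 (SE, adjusted p = 0.134) had an interval of -0.69 to 0.00. MCM2, which also binds histones, was the exception among the subunits in total RNA, where the shPRRC2B values of 167, 175 and 160.3 CPM all lay below the shCtrl values of 186, 208 and 175 CPM, the closest by less than 1 CPM. Its polysome values were 26.2, 31.6 and 48.1 CPM and 26, 31.5 and 28 CPM, and its TE change of -0.12 ± 0.24 (SE, adjusted p = 0.745) turned to 0.11 (adjusted p = 0.711) without shCtrl polysome replicate 3. The interval of -0.63 to 0.38 still holds changes past the threshold in the downward direction.

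Summed over MCM2 to MCM7, total RNA went from 1418 ± 71.4 to 1697 ± 13.8 CPM (SD, n = 3) and polysome RNA went from 544 ± 92.2 to 419.8 ± 5.58 CPM. These sums carry no test.

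MCM10 (chr10:13161558-13211110, + strand), which joins the helicase at activation, rose in total RNA. The shCtrl libraries held 62.8, 62.7 and 63.8 CPM and the shPRRC2B libraries 95.8, 98.3 and 105 CPM, a log2 change of 0.66 ± 0.14 (SE, adjusted p = 0.00197). Polysome RNA overlapped between the lines, with 25.4, 18.4 and 31.3 CPM in shCtrl and 22.8, 20.9 and 20.5 CPM in shPRRC2B. The TE change of -0.89 ± 0.21 (SE, adjusted p = 0.00537) came with a called rise in total RNA and a polysome change of -0.23 ± 0.16 (SE, adjusted p = 0.255). With the length trend removed the TE change was -0.51 (adjusted p = 0.0878) and the call was lost.

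CDC6, the ATPase that recruits the helicase to origins, also rose in total RNA. It measured 66.8, 71.1 and 70.8 CPM in shCtrl and 99.3, 101 and 104 CPM in shPRRC2B, a log2 change of 0.55 ± 0.11 (SE, adjusted p = 8.49e-04). The size was close to the threshold: leaving out any 1 of the 6 polysome libraries, which changes the scaling and the shared spread, put it at 0.50, just under 0.5, total-count scaling gave 0.47 and removal of the length trend 0.45. In polysome RNA the values of 83.6, 96.2 and 86.1 CPM and 98.1, 97.1 and 92.2 CPM overlapped. The TE change of -0.43 ± 0.15 (SE, adjusted p = 0.0417) passed the test but not the size threshold, and with the length trend removed it was -0.053 (adjusted p = 0.845).

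CDT1, the partner of CDC6 in loading, could not be resolved between the lines. Its total RNA overlapped at 174, 211 and 147 CPM in shCtrl and 193, 188 and 179.8 CPM in shPRRC2B. Its polysome RNA varied more than that of any other member, with 356, 631 and 894 CPM in the shCtrl libraries and 226, 542 and 502 CPM in the shPRRC2B libraries. The TE change of -0.64 ± 0.41 (SE, adjusted p = 0.258) had an interval of -1.50 to 0.22, which contains both 0 and a change larger than that of MCM4. Without shCtrl polysome replicate 1, the lowest of its group, the change was -0.97 (adjusted p = 0.0247).

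GMNN, which encodes geminin, was lower in both kinds of RNA. In total RNA the shCtrl libraries held 73.1, 76.6 and 77.6 CPM and the shPRRC2B libraries 59.8, 59.7 and 60.8 CPM, with no overlap. Polysome RNA also did not overlap, at 161, 179 and 179 CPM in shCtrl and 141, 119.7 and 111 CPM in shPRRC2B. Both changes passed the test but not the size threshold, -0.33 ± 0.12 (SE, adjusted p = 0.0325) in total RNA and -0.49 ± 0.12 (SE, adjusted p = 0.00242) in polysome RNA. As both were lower, the TE change was -0.15 ± 0.16 (SE, adjusted p = 0.522), with an interval of -0.50 to 0.19. The polysome change passed both thresholds when any 1 of 5 polysome libraries, all but shPRRC2B replicate 3, was left out and with the length trend removed, at -0.74 (adjusted p = 1.45e-04).

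**Figure D3:**
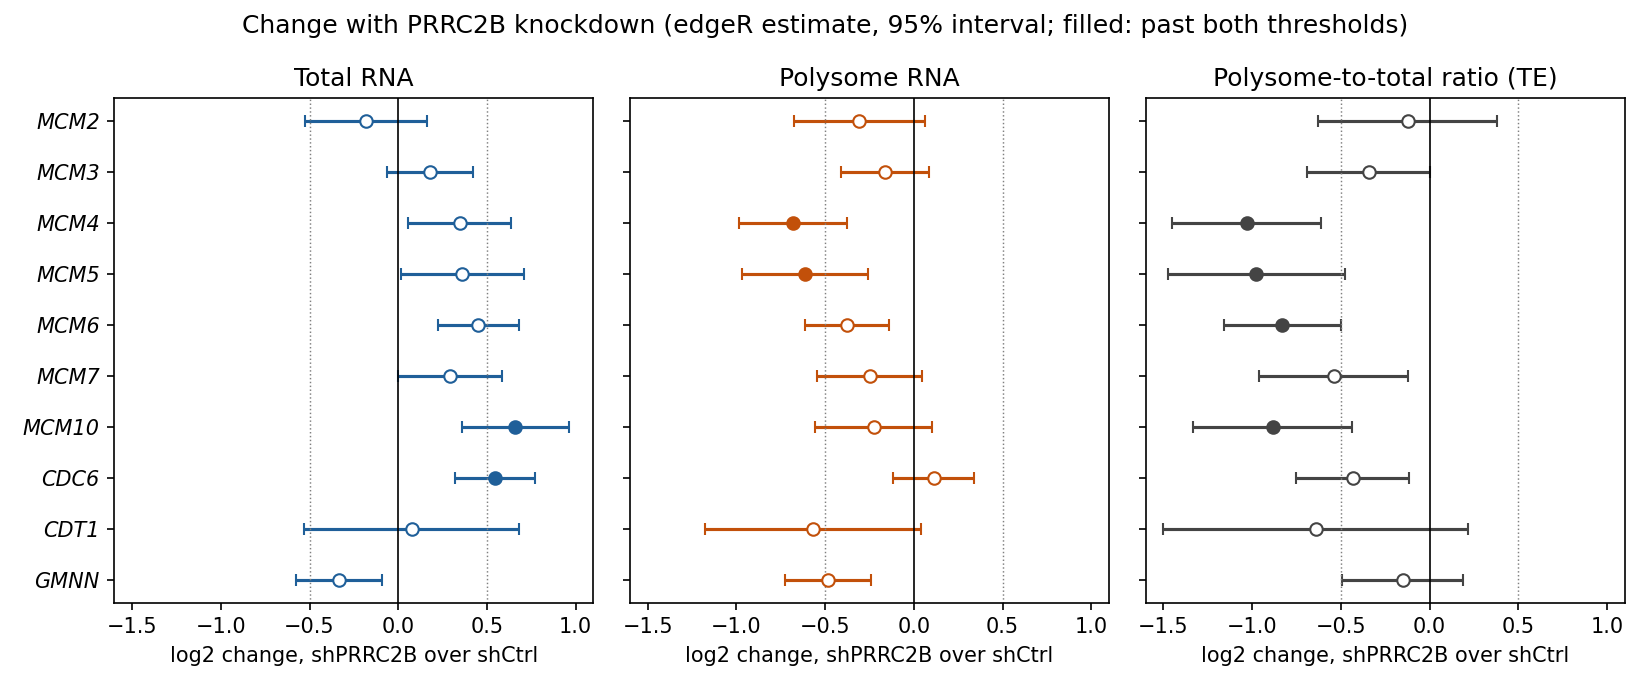
Log2 change in shPRRC2B over shCtrl (x axis) of total RNA, polysome RNA and TE for each gene, with the edgeR 95% interval. Filled points pass both thresholds, and dotted lines mark the size threshold of 0.5. MCM10 and CDC6 are filled in total RNA, MCM4 and MCM5 in polysome RNA, and MCM4, MCM5, MCM6 and MCM10 in TE.

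In total RNA, 2 members, MCM10 and CDC6, were called higher (14.9% of all genes), and 0 lower (14.1%). By an unadjusted p under 0.05, 1 member, GMNN, was lower, and DESeq2 and limma called none lower. The shPRRC2B libraries lay wholly above shCtrl for 7 members (34.1% of all genes), wholly below for 2, MCM2 and GMNN (28.8%), and overlapped for CDT1. In polysome RNA, 2 members were called lower (21.4%) and 0 higher (18.4%), with 0 higher at an unadjusted p under 0.05 and with DESeq2 or limma. The libraries lay wholly below for 4 members, MCM4, MCM5, MCM6 and GMNN (21.5%), wholly above for 0 (21.6%), and overlapped for the other 6. The median over the members was 0.32 in total RNA and -0.34 in polysome RNA, against 0.04 and -0.01 over all genes.

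A single library moved these counts. Without shCtrl polysome replicate 1, 7 members were TE-down, the 4 above with MCM7, CDC6 and CDT1, and 5 were lower in polysome RNA. Over all genes the same fit gave 3716 TE-down and 4647 lower in polysome RNA of 18992 tested, against 2981 and 3894 of 18166. Leaving out any other library gave 4 or 5 TE-down members. The number lower in polysome RNA was 4 without shCtrl polysome replicate 2, shPRRC2B polysome replicate 1 or shPRRC2B polysome replicate 2. Over all genes these fits, in that order, gave 4367 of 18994, 4507 of 18883 and 4117 of 18947 lower in polysome RNA.

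Within the shCtrl polysome group, 7 of 10 members were highest in replicate 3 and 0 in replicate 1, against 31.5% and 39.7% of all genes. Removing the trend on transcript length gave 4 TE-down members again, but a different set: MCM4 at -0.73 (adjusted p = 0.00905), MCM5 at -0.77 (adjusted p = 0.0244), MCM6 at -0.57 (adjusted p = 0.0114) and MCM7 in place of MCM10. Over all genes that fit turned 2981 TE-down and 1935 TE-up calls into 1704 and 1988.

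**Figure D4:**
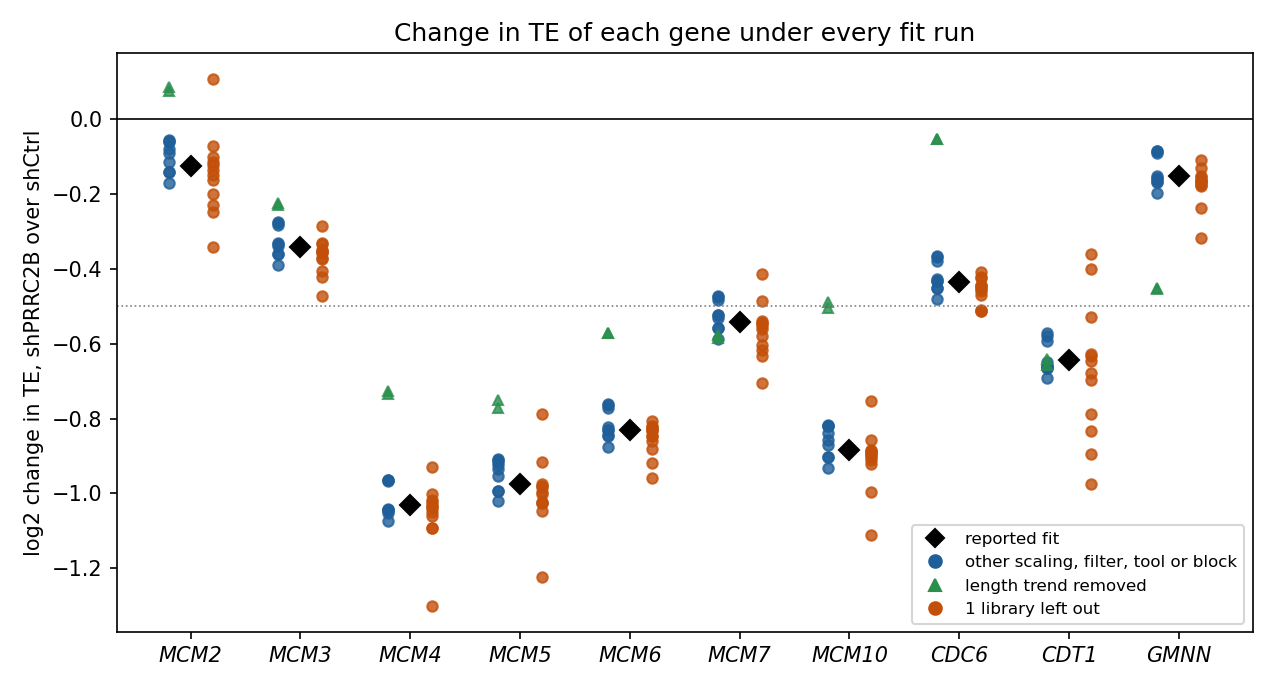
Log2 change in TE (y axis) of each gene in the reported fit (black diamonds), under another scaling, filter, tool or block (blue), with the length trend removed (green triangles) and with 1 library left out (orange). MCM4, MCM5 and MCM6 stay below -0.5 in every fit, MCM2 crosses 0, and CDT1 ranges from -0.97 to -0.36 as single libraries are left out.

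The genes that act with the members were taken as 60 further replication genes in 8 lists. Of these, 22 were TE-down and 5 TE-up, against 16.4% and 10.7% of all genes. The median was -0.33 against -0.03 over all genes, and 45 of 60 estimates were below 0, as were 51.7% of all genes. The 8 lists are small, and their counts are to be read against the same shares. In the origin recognition complex, which marks origins, 2 of 7 genes were TE-down, ORC1 (-1.05 ± 0.26, SE) and ORC2 (-0.77 ± 0.22), and ORC6 was TE-up (0.60 ± 0.19). Among the partners of MCM2 to MCM7 in the active helicase, 3 of 5 were TE-down: GINS4 (-1.004 ± 0.21), GINS1 (-0.79 ± 0.29) and GINS3. Origin firing factors had 2 of 8 TE-down, TICRR (-1.13 ± 0.27) and TOPBP1 (-0.59 ± 0.17), which bring CDC45 to the helicase. MCM3AP (-0.96 ± 0.21) was the only one called of 5 other MCM-named genes. MCM8 and MCM9, which form a separate helicase used in DNA repair, measured -1.002 ± 0.45 (adjusted p = 0.106) and -0.55 ± 0.28 (adjusted p = 0.156), neither called.

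Of the 6 genes for turnover of CDT1 and geminin, 3 were TE-down, the ubiquitin ligase scaffold CUL4B (-1.19 ± 0.21), its CDT1 adaptor DTL (-1.03 ± 0.22) and the linker DDB1, whereas the related scaffold CUL4A was TE-up (0.60 ± 0.16). In the E2F group, 4 of 13 were TE-down, the pocket proteins RBL1 (-1.94 ± 0.28) and RB1 (-1.58 ± 0.31), E2F7 and E2F2, and 2 were TE-up, the activator E2F1 (0.68 ± 0.18) and its partner TFDP1 (0.75 ± 0.21). Replicative polymerases had 4 of 12 TE-down, POLA1 (-1.37 ± 0.23), PRIM2 (-1.17 ± 0.28), POLE and POLD3, and 1 TE-up, the small subunit POLE4 (1.20 ± 0.23). At the fork protection complex 3 of 4 were TE-down, with CLSPN, the checkpoint mediator claspin, lowest of the 60 at -2.44 ± 0.26, WDHD1 at -1.07 ± 0.23 and TIPIN. With the length trend removed, 12 rather than 22 of the 60 were TE-down, and 1704 rather than 2981 of all 18166 genes.

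**Figure D5:**
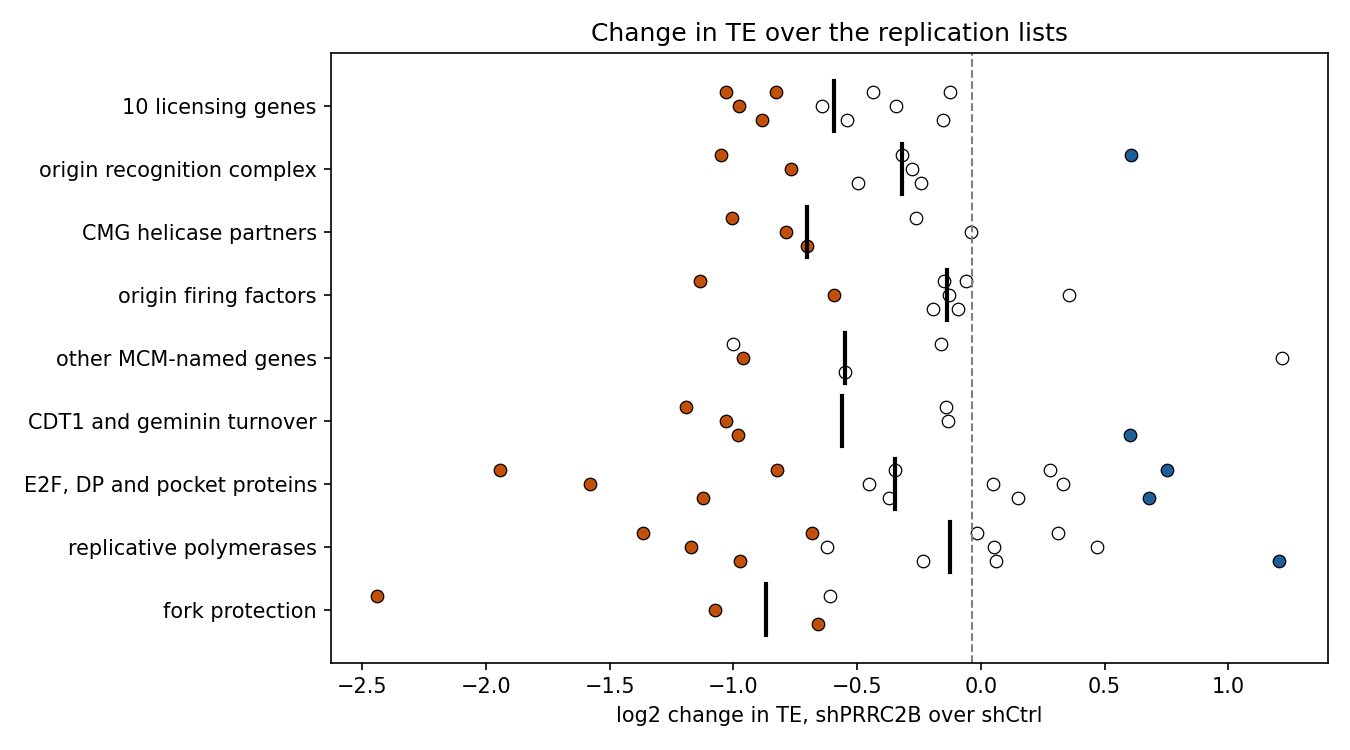
Log2 change in TE (x axis) of the 10 licensing genes and of 60 further genes in 8 replication lists, one point per gene. Orange points are TE-down, blue TE-up and open points not called, black bars are list medians, and the dashed line is the median of all genes at -0.03.

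Markers of cell cycle phases were measured beside the members. The summed total RNA of 36 S phase markers that are not members was 2741 to 2810 CPM in shCtrl and 3012 to 3090 CPM in shPRRC2B, and that of 52 G2/M markers 5912 to 6158 CPM and 6422 to 6666 CPM. In polysome RNA the S phase sums overlapped, 2553 to 3280 CPM against 2637 to 2894 CPM, and the G2/M sums did not, 4883 to 5388 CPM against 4257 to 4651 CPM. Of these markers, 17 of 36 and 21 of 52 were TE-down, against 16.4% of all genes, with medians of -0.59 and -0.47 against -0.03. The S phase list shares 9 genes with the 60 replication genes. Their part in the changes of the members was not tested.

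MCM7 is the member that the study lists as bound by both full-length PRRC2B and its fragment P2 in PAR-CLIP, a crosslinking assay, with windows of 100 nt. Both windows lie on the - strand of GRCh38 at exon 11 of the canonical transcript, at chr7:100095869-100095968 for P2 and chr7:100095770-100095869 for the full-length protein, where they share 1 nt. The P2 window lies in the exon over its whole length and the full-length window over 96 of its 100 nt, and these exonic bases are all coding. The exonic bases are printed in the sense of the mRNA, with runs of 5 or more C or T in capitals.
P2: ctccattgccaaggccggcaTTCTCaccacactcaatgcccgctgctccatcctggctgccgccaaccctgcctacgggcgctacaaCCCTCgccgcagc
full-length: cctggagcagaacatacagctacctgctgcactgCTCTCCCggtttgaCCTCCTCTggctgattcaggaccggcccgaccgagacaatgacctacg
C and T made up 63% of the P2 window and 55.2% of the 96 exonic nt of the full-length window, against 46.6% of the whole coding sequence of MCM7. Each window held 2 runs of 5 or more C or T. How often such runs occur elsewhere was not counted, and GA-rich stretches, the other motif type that the study reports, were not marked. MCM5, MCM10 and CDC6 have a listed window for only one of these proteins, and the remaining members, MCM4 and MCM6 among them, have none.

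Promoters were searched because total RNA lay wholly higher in shPRRC2B for 7 of the 10 members, as it did for 34.1% of all genes. The part of promoter letters in these changes was not tested. RefSeq promoter sequences (GRCh38.p14) matched 8 of the 10 members, not MCM4 and MCM5, and the 250 bases before each start were scanned on both strands for the E2F-type letters TTTCGCGC, TTTGGCGC and TTTCCCGC, the first and second of which can overlap on opposite strands. A match stood before 5 of the 11 starts of these 8 genes, 1 start each of MCM3, MCM6, MCM7, CDT1 and GMNN, and before 2.32% of all 35116 starts. MCM6 carries 4 matches, as 2 copies of a block in which 2 matches overlap, and its window is printed with those of MCM3 and CDT1, 1 match each, with matches in capitals.
MCM6, chr2:135876506-135876611, - strand: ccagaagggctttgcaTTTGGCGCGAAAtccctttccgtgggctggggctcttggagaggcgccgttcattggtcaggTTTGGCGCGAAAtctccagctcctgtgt
MCM3, chr6:52284893-52284932, - strand: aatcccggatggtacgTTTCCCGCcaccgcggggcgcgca
CDT1, chr16:88803738-88803777, + strand: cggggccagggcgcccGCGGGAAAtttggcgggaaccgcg
MCM10 and CDC6, the members called higher in total RNA, had none of these exact letters in the window. Other forms of E2F-type sites were not searched. CCAAT stood before 8 of the 11 starts, in 6 of the 8 genes, and before 32% of all starts.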

How the data were processed

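Polysome and total RNA of HEK293T shCtrl and shPRRC2B cells were sequenced in 12 libraries, 3 per group. The authors deposited raw read counts per gene name, made per the labels and methods with featureCounts (Subread 2.0.1) on GENCODE 38 after trimming (Trimmomatic 0.36) and alignment to GRCh38 (HISAT2 2.1.0). The submitters' processing notes also name bcl2fastq 2.19.0, DESeq2 and R 4.1.2. The counting options in the study's methods include no strand setting, and the program by default counts without strand. The table has 5 empty trailing columns, which were not used, and 0 columns of values of no library.

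The counts were filtered with filterByExpr (18166 of 59385 names kept), scaled by TMM over the 12 libraries and fitted with edgeR 4.0.16 in R 4.3.3 (glmQLFit, 1 model with 4 groups). TE is the interaction of line and fraction. P-values come from glmQLFTest, two-sided, with Benjamini-Hochberg adjustment over all genes tested, and calls need both this value under 0.05 and a change of more than 0.5 on the log2 scale. Intervals are 95% and rest on 1 estimate of spread per gene, shared by the total and polysome libraries. Replicate pairs differed less in total RNA (chi-square per degree of freedom 3.60 to 12.6) than in polysome RNA (19.1 to 107). The SE of a change in total RNA thus also carries polysome spread. For PRRC2B it was 0.17 in this fit and 0.065 with the total libraries fitted alone. Total counts per library of 9855734 to 20837542 gave each member at least 170 counts. The alternatives used DESeq2 1.42.0, limma 3.58.1 on log2(CPM + 1), other scalings and filters, blocks on replicate number or culture, removal of a smooth trend on transcript length, and each library left out.

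Named genes are the 10 members, PRRC2B, in each pathway list up to 2 genes with the largest rise and up to 2 with the largest fall in TE among those called, and the 5 genes whose levels follow the mean of MCM2 to MCM7 most closely. MCM8, MCM9, GINS3, DDB1, E2F7, E2F2, POLE, POLD3 and TIPIN were named after their values were seen. Members and lists were chosen with earlier results of these data known. Transcript lengths come from canonical GENCODE 44 transcripts, and 15762 (86.8%) of the 18166 tested genes have one. Promoters are from RefSeq (GRCh38.p14), and PAR-CLIP windows are positions in the study's supplement. The fit was tested on simulated data.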

Additional observations from a re-analysis of the deposited data

Results flagged for a closer look

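The change between the lines differed between polysome and total RNA for 4 members, by the edgeR test of the interaction with a log2 size past 0.5. Among all genes 16.4% passed both thresholds downward and 10.7% upward. CDC6 passed the test at -0.43 (adjusted p = 0.0417) but not the size threshold. The interaction was -1.03 on the log2 scale for MCM4, -0.98 for MCM5, -0.83 for MCM6 and -0.89 for MCM10, with adjusted p-values of 0.00119, 0.00561, 9.64e-04 and 0.00537. For MCM4, MCM5 and MCM6 every shPRRC2B library lay above every shCtrl library in total RNA and below every one in polysome RNA. Counted in each fraction alone, 34.1% of all genes lay wholly above in total RNA and 21.5% wholly below in polysome RNA. For MCM10 the total RNA libraries did not overlap and the polysome libraries did.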

How the results depend on the processing

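MCM4, MCM5 and MCM6 remained TE-down under all 24 alternatives. With the length trend removed, without or with the replicate block, 1 member, MCM10, was higher in total RNA and 1 was lower in polysome RNA, GMNN, while MCM4 and MCM5 lost their polysome calls (MCM4 -0.48 in both fits, MCM5 -0.50 and -0.48), 4 were below total RNA in shCtrl and 12 pathway genes were TE-down. Those fits also turned MCM10 polysome RNA to 0.054 and 0.068 and MCM2 TE to 0.074 and 0.085 (log2). Over all genes they gave 1704 and 1542 TE-down genes against 2981. Total-count scaling left 1 member higher in total RNA. With no minimum change 4 members were lower in polysome RNA and 1 in total RNA. With every gene that has a count kept, 4 were lower in polysome RNA and 3 pathway genes TE-up. Leaving out 1 library at a time gave 4 to 7 members TE-down, 1 to 2 higher in total RNA, 2 to 5 lower in polysome RNA and 3 to 5 pathway genes TE-up. It also gave -0.015 to 0.11 for CDC6 polysome RNA, with values below 0 when shCtrl polysome replicate 1 (-0.015) or 3 (-0.012) or shPRRC2B polysome replicate 1 (-0.015) was left out, -0.045 to 0.22 for CDT1 total RNA and -0.34 to 0.11 for MCM2 TE. Without shCtrl total replicate 2, 1285 genes were TE-up against 1935. The causes were not tested. No clear pairing by replicate number was seen. Over 18 pairs of same-numbered libraries, which include pairs across lines, the correlation of deviations was -0.22 to 0.17, and 2 were over 0.1. Total and polysome libraries of the same line and number gave 0.0014 to 0.070, all positive. Of 12 libraries, 4 correlated best with their own number. Such weak correlations cannot settle whether total and polysome RNA came from the same culture. The replicate block left 4 members TE-down, 2 higher in total RNA and 2 lower in polysome RNA. The lowest member count in a library was 170, in a design of 3 libraries per group.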

Other observations

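The mean profile of MCM2 to MCM7 over the 12 libraries, on the log2(CPM + 1) scale, was followed most closely by KHSRP (Pearson r = 0.999), NPEPPS, ACO1, TET1 and FLNC (0.998 each). The libraries differ most between polysome and total RNA, and 31.7% of 10041 genes had r above 0.9. The value was -0.24 for CDC6, -0.75 for CDT1 and -0.87 for GMNN.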
